A study of Mus musculus with 8 samples.

Results

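The genes described here are 10 chaperone genes of the heat shock response, namely *Hspa1a*, *Hspa1b*, *Hspa8*, *Hsph1*, *Hspb1*, *Dnaja1*, *Dnajb1*, *Hsp90aa1*, *Hspd1* and *Hspe1*. They were chosen by symbol, as genes that heat shock factor 1 (HSF1) is known to induce, and not by a threshold on any value. All 10 were among the 15859 genes of the count table and among the 14371 genes that were tested. The samples were polyA RNA of bulk distal colon from male mice of a BALB/c x 129SvEV background, either HSF1 WT or HSF1 null, with 2 mice in each of 4 groups and 1 library per mouse. WT day 0 and null day 0 mice were age-matched and untreated. WT day 15 and null day 15 mice had received azoxymethane (AOM), a colon carcinogen, at 10 mg/kg intraperitoneally at 8 weeks of age, and then from day 7 had 1.5% dextran sulfate sodium (DSS), which injures the colonic epithelium, in their drinking water for 5 days. The labelled age was 10 weeks in every group. The null allele is carried in the germline, so the genotype was not limited to 1 cell type of the colon. The comparisons addressed whether chaperone RNA in the colon differed with HSF1 before treatment, and whether it differed with HSF1 during the inflammation that AOM–DSS produces.

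HSF1 is held inactive by chaperones in unstressed cells and is released when unfolded proteins engage those chaperones. It then forms trimers, binds heat shock elements, which are alternating inverted repeats of the letters GAA, and activates chaperone genes. The products work as machines with separate parts: HSP70 proteins bind unfolded stretches of protein, J-domain proteins deliver clients to HSP70, HSP110 proteins exchange its nucleotide, HSP90 finishes many signalling proteins, small heat shock proteins hold clients in a soluble state, and a chaperonin with its lid folds proteins inside mitochondria.

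The upstream sequences are shown because heat shock elements are the sites through which HSF1 acts on these genes. RefSeq promoter windows (GRCm38.p6, the same assembly as mm10) held 8 of the 10 genes, and *Hspa8* and *Hsp90aa1* had no entry. Within the 250 bases before a RefSeq start, both strands were searched for an inverted pair of units, GAANNTTC or TTCNNGAA, and 7 of the 8 genes held at least 1 match. The same letters stood in 14.5% of 27025 genes. A run of 3 units, in which 1 more GAA or TTC follows the pair in alternating orientation after another NN and which therefore contains the pair, was found for *Hspd1* and *Hspe1*, against 0.514% of all genes. The windows of *Dnajb1* held neither, which says only that these letters were not in them.

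*Hspa1a* and *Hspa1b* lie on the minus strand of chromosome 17 with 9951 bases between them, *Hspa1a* at chr17:34969190-34972156 and *Hspa1b* at chr17:34956436-34959238, and each is 1 exon. Their 250 upstream bases differ at 3 positions and are printed in full to show how alike the 2 genes are upstream of their starts. Capitals mark the matched letters, and no annotated exon lies in either stretch, which run 5′ to 3′ on the minus strand at chr17:34972157-34972406 and chr17:34959239-34959488.
*Hspa1a*: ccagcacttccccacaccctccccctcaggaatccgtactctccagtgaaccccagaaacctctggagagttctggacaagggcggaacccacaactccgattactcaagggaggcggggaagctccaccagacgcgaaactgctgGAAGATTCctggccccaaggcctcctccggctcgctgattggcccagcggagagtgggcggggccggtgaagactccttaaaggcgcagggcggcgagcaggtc
*Hspa1b*: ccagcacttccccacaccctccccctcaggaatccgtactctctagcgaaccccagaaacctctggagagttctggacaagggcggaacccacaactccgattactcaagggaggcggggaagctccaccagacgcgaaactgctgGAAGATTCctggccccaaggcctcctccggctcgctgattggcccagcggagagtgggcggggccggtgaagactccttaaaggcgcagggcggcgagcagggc

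For the other genes, 30 bases around each match show how the sites differ in length and spacing, with the matched letters in capitals. *Hspd1* (chr1:55077835-55088243, minus strand, 12 exon blocks, which are annotated exons merged where they overlap) and *Hspe1* (chr1:55088132-55091307, plus strand, 4 exon blocks) are neighbours that overlap by 112 bases at their 5′ ends, and their site is 1 stretch, chr1:55088053-55088082, read on opposite strands. It lies in annotated exon sequence of *Hspd1*.
*Hspd1* site, minus strand: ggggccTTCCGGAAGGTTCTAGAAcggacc
*Hspe1* site, plus strand: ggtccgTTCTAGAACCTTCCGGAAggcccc
*Hspb1* (chr5:135887919-135889563, plus strand, 2 exon blocks) held 2 matches outside any annotated exon, at chr5:135887791-135887820 and chr5:135887811-135887840.
*Hspb1* distal site: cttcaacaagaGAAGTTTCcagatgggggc
*Hspb1* proximal site: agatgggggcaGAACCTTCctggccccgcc
*Dnaja1* (chr4:40722150-40737149, plus strand, 9 exon blocks) and *Hsph1* (chr5:149614287-149636376, minus strand, 19 exon blocks) each held 1, at chr4:40722333-40722362 and chr5:149636351-149636380, the matched letters of both lying within annotated exon sequence.
*Dnaja1* site: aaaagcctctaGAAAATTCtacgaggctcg
*Hsph1* site: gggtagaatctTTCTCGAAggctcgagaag
The remaining genes are *Dnajb1* (chr8:83608193-83612653, plus strand, 4 exon blocks), *Hspa8* (chr9:40800984-40810087, plus strand, 3 exon blocks) and *Hsp90aa1* (chr12:110690605-110702728, minus strand, 11 exon blocks). None lies on chromosome 15, where *Hsf1* itself is (chr15:76477422-76501913).

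Library totals ran from 2553348 to 12440257 counts, and the smallest count of any of the 10 genes was 31. Levels below are counts per 1000000 counts of the library (CPM), scaled for library composition. The targeted gene, *Hsf1*, was measured at 40.5 and 36.5 CPM in WT day 0, 14.0 and 11.9 in null day 0, 50.5 and 45.9 in WT day 15 and 13.5 and 9.09 in null day 15, so every null mouse was below every WT mouse. The WT day 15 libraries differed from each other more at these chaperones than at genes in general, with a median gap of 0.80 on the log2 scale against 0.32 over all genes, and 9 of the 10 were higher in replicate 2. In null day 15 the gap was 0.89 against 0.42, again with 9 of 10 higher in replicate 2, while it was 0.44 against 0.31 in WT day 0, with 7 of 10 higher in replicate 2, and 0.16 against 0.40 in null day 0. Values at day 15 are therefore also given with single day 15 mice left out. Markers of the labelled tissue were present in every mouse, with summed CPM of 8240 to 18694 over 10 colonocyte genes, 6968 to 38781 over 7 goblet cell genes and 2146 to 9926 over 9 smooth muscle genes.

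At day 15 the fitted level of all 10 chaperone genes was lower in null than in WT colon, by a median of -1.16 on the log2 scale against -0.03 over all genes tested, of which 52.1% were lower. *Dnajb1* fell, and the other 9 did not pass the test. A gene was called where edgeR's quasi-likelihood test gave a Benjamini-Hochberg adjusted p below 0.05 together with an absolute log2 fold change above 1. By that rule 1 of 10 was called lower, where the rule called 1.25% of all genes lower. In 6 of 10, *Dnaja1*, *Dnajb1*, *Hspa8*, *Hspb1*, *Hspe1* and *Hsph1*, both null mice lay below both WT mice, against 28.6% of all genes. An unadjusted p under 0.05 with a lower level was reached by 7 of 10, against 11.6% of all genes. In bulk tissue, fewer cells of a type and less RNA per cell cannot be told apart.

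Among the J-domain proteins, *Dnajb1*, the stress-inducible partner that hands clients to HSP70, was measured at 63.4 and 89.7 CPM in WT day 0, 51.8 and 50.7 in null day 0, 78.6 and 133 in WT day 15 and 37.1 and 31.8 in null day 15. Each null mouse was below each WT mouse, and the day 15 null mice were the lowest of the 8. The day 15 means were 106 ± 38.4 CPM in WT and 34.5 ± 3.70 in null (SD, n = 2 each), and the log2 fold change was -1.62 (SE 0.30, 95% interval -2.29 to -0.94, edgeR adjusted p = 0.0277). The adjusted p was 0.161 without WT day 15 replicate 2, 0.141 without null day 15 replicate 1, 0.0556 without null day 15 replicate 2, 0.0631 and 0.0619 without null day 0 replicates 1 and 2, 0.0945 with only the compared groups in the fit and 0.0597 with every library randomly reduced to the depth of the shallowest. The log2 fold change was -1.19 without WT day 15 replicate 2 and lay between -1.72 and -1.51 in the other settings named.

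*Dnaja1*, a second J-domain partner of HSP70, was measured at 44.8 and 54.4 CPM in WT day 0, 53.8 and 63.2 in null day 0, 63.1 and 143 in WT day 15 and 37.4 and 53.5 in null day 15. The genotypes overlapped at day 0 and did not at day 15, where the largest distance came from WT replicate 2. The day 15 log2 fold change was -1.18 (SE 0.37, 95% interval -2.00 to -0.36) and was not called (edgeR adjusted p = 0.102). Without WT day 15 replicate 2 it was -0.47.

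**Figure D1:**
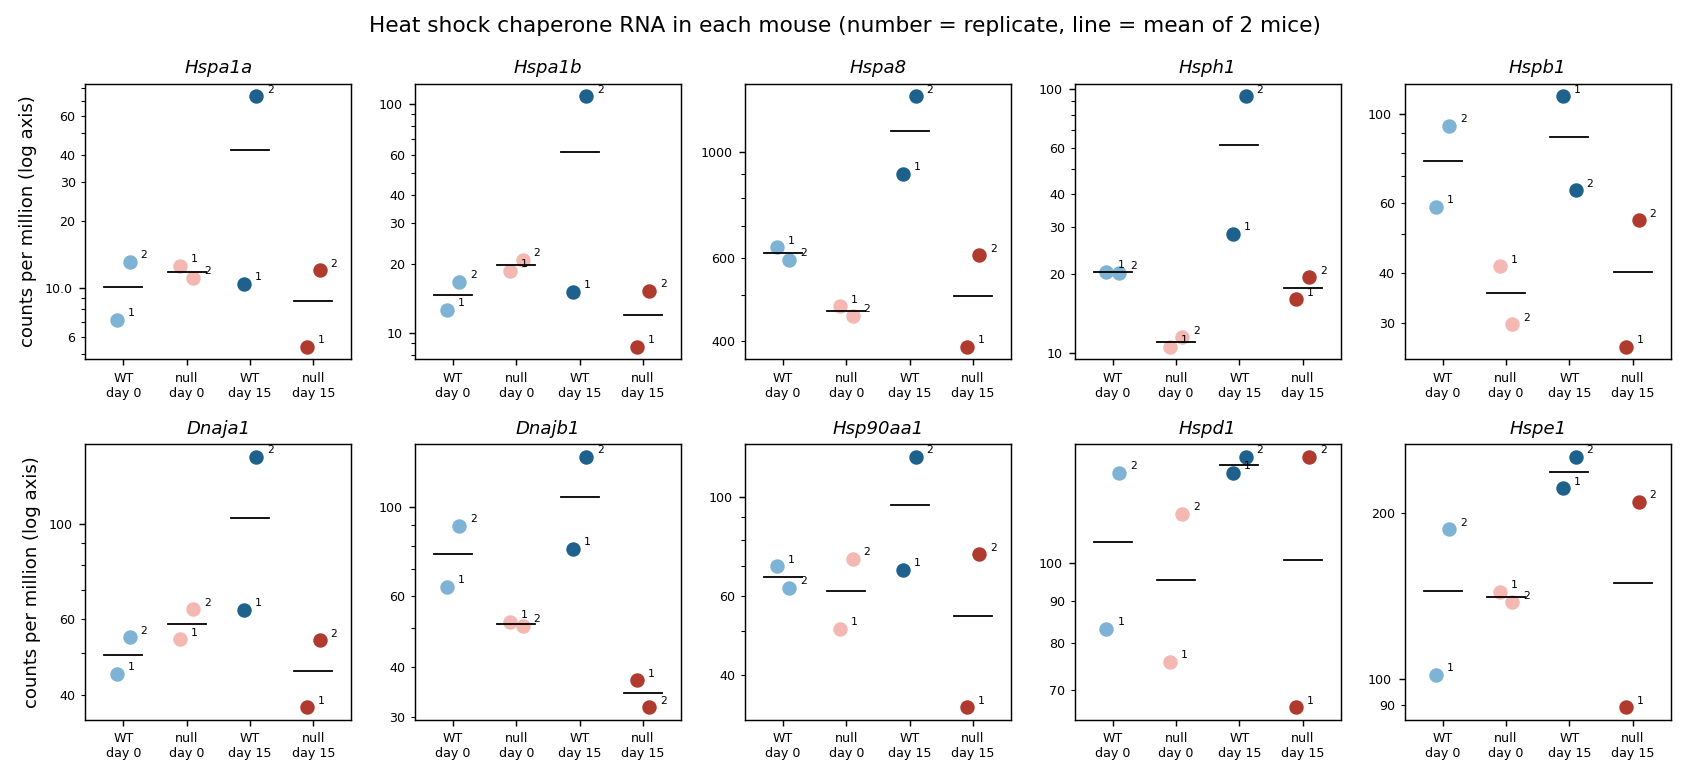
CPM on a log axis for each of the 10 chaperone genes, 1 panel per gene, with 1 point per mouse labelled by its replicate number and a line at the mean of the 2 mice. WT day 15 replicate 2 is the highest mouse for 9 genes, level with null day 15 replicate 2 at *Hspd1* and with *Hspb1* as the exception, and *Dnajb1* shows both null groups below both WT groups.

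Within the HSP70 family, *Hspa8* encodes the constitutive cytosolic member HSC70, and by CPM it was by far the most abundant of the 10 genes. Per kilobase of annotated exon its lead was smaller, with null day 15 means of 116 against 101 for *Hspe1*. *Hspa8* was measured at 631 and 594 CPM in WT day 0, 474 and 452 in null day 0, 901 and 1313 in WT day 15 and 390 and 607 in null day 15. Null mice were below WT mice without overlap on each day, although null day 15 replicate 2 lay above WT day 0 replicate 2. The log2 fold change was -1.15 at day 15 (SE 0.31, 95% interval -1.84 to -0.46, edgeR adjusted p = 0.0704) and -0.40 at day 0 (SE 0.31, 95% interval -1.09 to 0.28), neither of them called. At day 15 it was -0.86 without WT day 15 replicate 2 and also without null day 15 replicate 1, and without null day 15 replicate 2 it was -1.50 and called (edgeR adjusted p = 0.0459).

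*Hspa1a* and *Hspa1b*, the stress-inducible HSP70 genes, share much of their sequence: 58.8% of the 50-base stretches of *Hspa1a* transcripts also occur in *Hspa1b*, and 62.3% of those of *Hspa1b* in *Hspa1a*, but none occur in *Hspa8*. How reads of the shared part were assigned is not given in the sources used here, so the split between the 2 genes is uncertain. *Hspa1a* was measured at 7.15 and 13.1 CPM in WT day 0, 12.6 and 11.1 in null day 0, 10.4 and 73.5 in WT day 15 and 5.43 and 12.0 in null day 15. *Hspa1b* was measured at 12.6 and 16.7 CPM in WT day 0, 18.6 and 20.8 in null day 0, 15.1 and 108 in WT day 15 and 8.69 and 15.2 in null day 15. For both genes a single mouse, WT day 15 replicate 2, stood far above the other 7, while WT day 15 replicate 1 lay within the range of the null mice. The gap between the WT day 15 replicates at *Hspa1b*, 2.79 on the log2 scale, was matched or passed by 0.424% of all genes.

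The day 15 log2 fold change of *Hspa1a* was -2.25 (SE 0.76, 95% interval -3.95 to -0.55, edgeR adjusted p = 0.120) and that of *Hspa1b* -2.35 (SE 0.71, 95% interval -3.95 to -0.76, edgeR adjusted p = 0.0942). Summing the reads of both genes, which avoids the split between them, gave -2.31 (SE 0.72, edgeR adjusted p = 0.0989). The sum does not settle reads shared with *Hspa1l*, where 7.95% of the 50-base stretches of *Hspa1a* and 6.79% of those of *Hspa1b* also occur. Without WT day 15 replicate 2 the differences were -0.24 for *Hspa1a* and -0.34 for *Hspa1b*, and with the other WT day 15 mouse left out both genes were called. As a share of *Hspa8* counts, the inducible pair amounted to 3.14% and 5.01% in WT day 0, 6.56% and 7.07% in null day 0, 2.83% and 13.8% in WT day 15 and 3.62% and 4.49% in null day 15, so WT day 15 held both the lowest and the highest share of the 8 mice.

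*Hsph1*, the HSP110 protein that exchanges nucleotide on HSP70, was measured at 20.3 and 20.2 CPM in WT day 0, 10.6 and 11.5 in null day 0, 28.4 and 94.3 in WT day 15 and 16.0 and 19.4 in null day 15. All 4 null mice lay below all 4 WT mice, the narrowest distance being that between null day 15 replicate 2 and the WT day 0 mice. The replicates were close at day 0, where the means were 20.3 ± 0.0291 CPM in WT and 11.0 ± 0.641 in null (SD, n = 2 each). The day 15 log2 fold change was -1.79 (SE 0.47, 95% interval -2.85 to -0.74, edgeR adjusted p = 0.0665). It was -0.69 without WT day 15 replicate 2.

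*Hspb1*, the small heat shock protein HSP27 that keeps unfolded clients soluble, was measured at 58.6 and 93.7 CPM in WT day 0, 41.6 and 29.8 in null day 0, 111 and 64.5 in WT day 15 and 26.2 and 54.2 in null day 15. Again the 4 null mice were all below the 4 WT mice. Here the higher WT day 15 mouse was replicate 1, unlike in the other 9 genes, and the genotype difference was -1.07 at day 0 (SE 0.41, 95% interval -1.99 to -0.15) and -1.12 at day 15 (SE 0.41, 95% interval -2.03 to -0.22). Neither was called, with edgeR adjusted p = 0.775 and 0.140. Left-out mice moved both values: at day 0 it was -0.68 without WT day 0 replicate 2, and at day 15 it was -0.68 without WT replicate 1, -1.46 without WT replicate 2, -0.69 without null replicate 1 and -1.74 without null replicate 2.

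*Hsp90aa1*, the inducible cytosolic HSP90, was measured at 70.0 and 62.7 CPM in WT day 0, 50.7 and 72.6 in null day 0, 68.7 and 123 in WT day 15 and 33.8 and 74.4 in null day 15. The genotypes overlapped on both days. The day 15 log2 fold change was -0.82 (SE 0.40, 95% interval -1.70 to 0.06, edgeR adjusted p = 0.244), and it was -0.34 without WT day 15 replicate 2, -0.35 without null day 15 replicate 1 and -1.50 without null day 15 replicate 2. Its constitutive relative *Hsp90ab1* was far more abundant, at 1460 and 1575 CPM in WT day 0, 1369 and 880 in null day 0, 2557 and 2523 in WT day 15 and 2260 and 2404 in null day 15, with a day 15 genotype difference of -0.12 (SE 0.32).

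The mitochondrial chaperonin *Hspd1* (HSP60) was measured at 83.2 and 129 CPM in WT day 0, 75.8 and 115 in null day 0, 129 and 135 in WT day 15 and 66.7 and 135 in null day 15. Its lid *Hspe1* (HSP10) was measured at 102 and 187 CPM in WT day 0, 144 and 138 in null day 0, 222 and 253 in WT day 15 and 89.0 and 210 in null day 15. The null day 15 mice lay far apart for both genes, and replicate 2 reached the WT level of *Hspd1*. The day 15 log2 fold change was -0.39 for *Hspd1* (SE 0.36, 95% interval -1.19 to 0.41, edgeR adjusted p = 0.549) and -0.67 for *Hspe1* (SE 0.40, 95% interval -1.55 to 0.22, edgeR adjusted p = 0.337), the smallest 2 of the 10. Without WT day 15 replicate 2 they were -0.36 and -0.57, without null day 15 replicate 1 they were 0.04 and -0.17, and without null day 15 replicate 2 they were -0.99 and -1.41. The intervals include both no difference and a halving of the level, and reads from the 112 shared bases could not be assigned to 1 of the 2 genes unless counting used strand, which is not given in the sources used here. Exons of *Dnaja1* likewise overlap those of *Smu1* over 608 bases and those of *Gm6297* over 249, and exons of *Hspa1a* overlap those of *Gm20481* over 564, which summing with *Hspa1b* does not resolve.

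**Figure D2:**
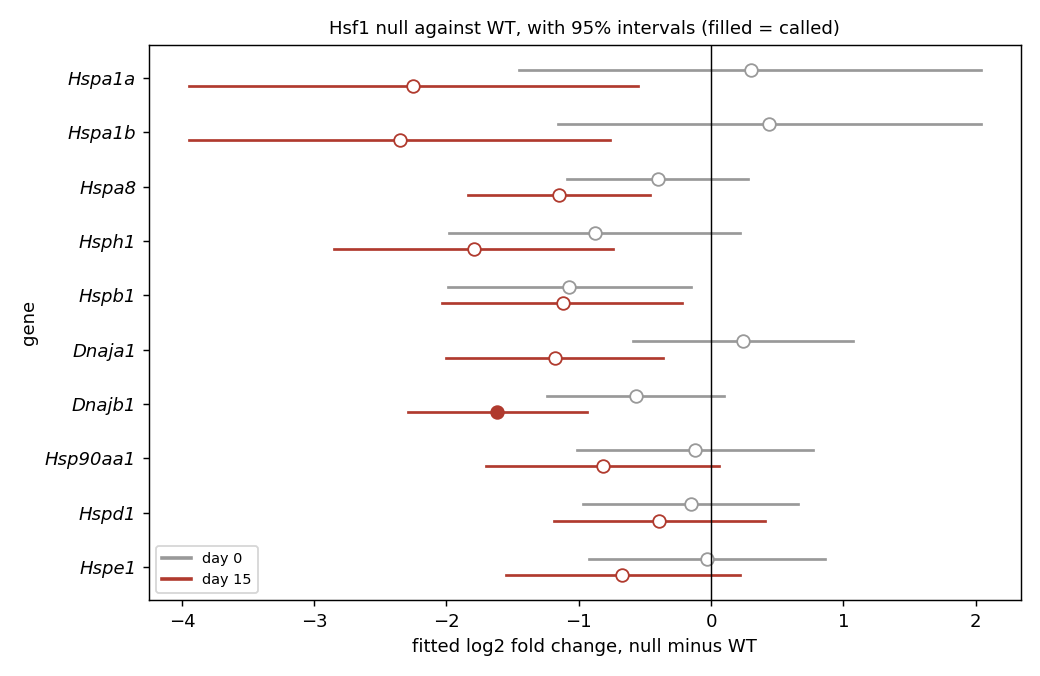
Fitted log2 fold change of null against WT at day 0 (grey) and day 15 (red) for each gene, with bars for 95% intervals and filled points for called genes. At day 15 all 10 points lie below 0 and only *Dnajb1* is called, while at day 0 they lie between -1.07 and 0.44 and none is called.

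In untreated colon the genotype comparison gave a median of -0.14 over the 10 genes against -0.01 over all genes, with 7 fitted values below 0, against 50.8% of all genes. With 1 of the day 0 mice left out the median lay between -0.39 and 0.03, and 5 to 8 values were below 0. None of the 10 was called by edgeR or by DESeq2, and the rule called 0% of all genes by edgeR, where 904 genes had an unadjusted p under 0.05. *Hsf1*, the targeted gene, was not called at day 0 either, with a log2 fold change of -1.57 (SE 0.30, edgeR adjusted p = 0.775). *Hspb1* was the 1 chaperone gene of the 10 with an unadjusted p under 0.05 and a lower level, which 3.93% of all genes had. Both null mice lay below both WT mice in 4 of 10, namely *Dnajb1*, *Hspa8*, *Hspb1* and *Hsph1*, against 18.4% of all genes, and *Hspa1b* had both null mice above both WT mice, against 18.7%. The 95% interval included 0 in 9 of the 10 genes, and the intervals of *Hspa1a* (-1.45 to 2.04) and *Hspa1b* (-1.16 to 2.04) were too wide to tell a large difference in either direction from none.

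Averaged over both days, which used 4 mice per genotype, all 10 genes had a fitted level below WT in null colon, with a median of -0.87 against -0.02 over all genes, of which 51.5% were lower. The median was -0.28 without WT day 15 replicate 2, with 8 of the 10 below 0. *Dnajb1* fell by 1.09 on the log2 scale (SE 0.21, 95% interval -1.57 to -0.62, edgeR adjusted p = 0.0457) and was the 1 gene of 10 called, where the rule called 0.362% of all genes lower. In 3 of 10 genes, *Dnajb1*, *Hspb1* and *Hsph1*, all 4 null mice lay below all 4 WT mice, against 2.60% of all genes. The differences of *Hsph1* (-1.34, SE 0.34, edgeR adjusted p = 0.0762) and *Hspb1* (-1.09, SE 0.29, edgeR adjusted p = 0.0828) were of similar size and did not pass. The call of *Dnajb1* was lost with any 1 mouse left out other than WT day 15 replicate 1, the adjusted p then lying between 0.0524 and 0.168, and likewise with a replicate block (0.0631) and with libraries reduced to the smallest depth (0.0912). In all of these fits its log2 fold change lay between -1.21 and -0.88. With 1 mouse left out *Hsph1* lay between -1.65 and -0.78 and *Hspb1* between -1.40 and -0.87. DESeq2 called *Dnajb1*, *Hspb1* and *Hsph1*, and it also called more of all genes than the 145 of edgeR.

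After AOM–DSS, all 10 genes had a fitted level above day 0 in WT colon, with a median of 0.79 against 0.00 over all genes, of which 50.2% were higher, but none of the 10 passed the test, where the rule called 3.47% of all genes higher. An unadjusted p under 0.05 was reached by 5 of 10, all higher, against 13.8% of all genes. That count was 0 without WT day 15 replicate 2 and 1 without WT day 0 replicate 1. Both day 15 mice lay above both day 0 mice for *Dnaja1*, *Hspa8*, *Hspe1* and *Hsph1*, 4 of 10 genes against 31.0% of all genes. The differences were 2.10 for *Hspa1a* (SE 0.78, 95% interval 0.37 to 3.84), 2.09 for *Hspa1b* (SE 0.72, 95% interval 0.48 to 3.69), 1.60 for *Hsph1* (SE 0.48, 95% interval 0.54 to 2.66), 1.06 for *Dnaja1* (SE 0.37, 95% interval 0.23 to 1.89) and 0.85 for *Hspa8* (SE 0.31, 95% interval 0.16 to 1.54), with edgeR adjusted p from 0.0660 to 0.116. They were 0.08, 0.07, 0.49, 0.35 and 0.56 without WT day 15 replicate 2, with a median of 0.32 over the 10 genes. Without WT day 15 replicate 1 they were 2.92, 2.90, 2.22, 1.53 and 1.10. DESeq2 called 4 of these 5 genes, all but *Hspa8*, and it also called more of all genes than the 1112 of edgeR. These 5 genes are those with an unadjusted p under 0.05.

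In null colon the same comparison put 5 genes above and 5 below day 0, with a median of -0.05 against 0.05 over all genes, of which 47.9% lay below 0. None of the 10 was called by edgeR or DESeq2 and 0 had an unadjusted p under 0.05, where the rule called 11.8% of all genes and 32.6% had such a p. The even split rested on single mice: without null day 15 replicate 2, 9 of 10 lay below 0 (median -0.57), and without null day 15 replicate 1, 3 did (median 0.34). The 1692 genes called in all became 0 without null day 0 replicate 2, 361 without null day 15 replicate 2 and 487 without null day 15 replicate 1. The fitted values ran from -0.71 for *Hspa1b* (95% interval -2.29 to 0.87) to 0.69 for *Hsph1* (95% interval -0.40 to 1.77). *Dnaja1*, *Dnajb1* and *Hspa1b* had both day 15 mice below both day 0 mice, and *Hsph1* had both above, against 30.3% and 31.0% of all genes.

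**Figure D3:**
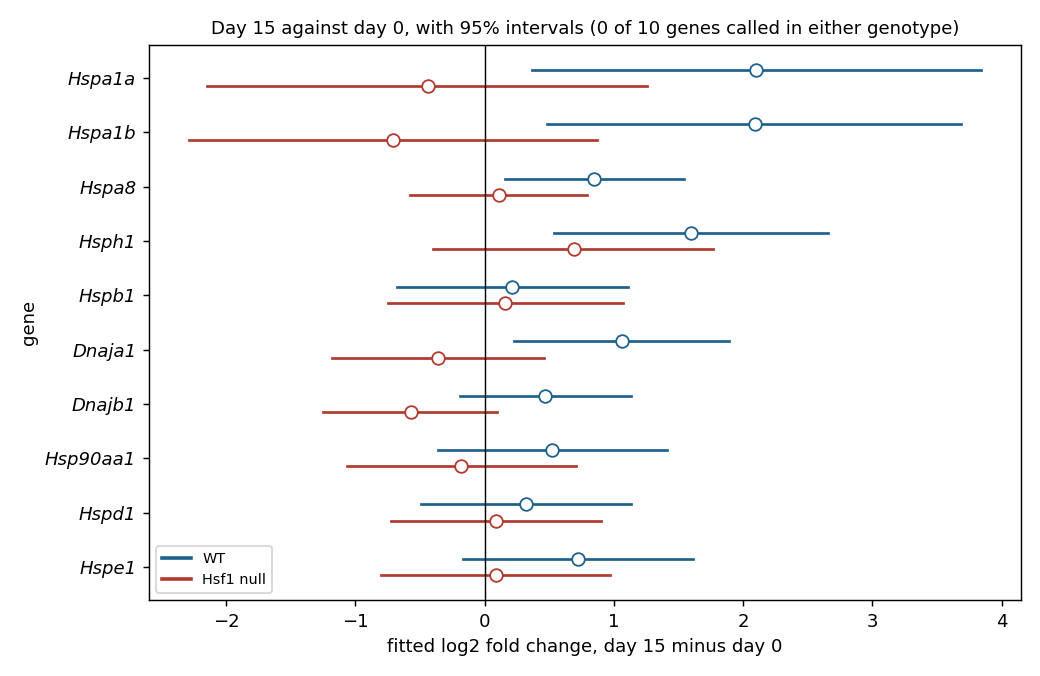
Fitted log2 fold change of day 15 against day 0 in WT (blue) and *Hsf1* null (red) colon for each gene, with bars for 95% intervals and open points because no gene was called. WT values lie between 0.21 and 2.10 and null values between -0.71 and 0.69.

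The difference between the 2 changes was tested directly. It was below 0 for all 10 genes, a smaller or more negative change in null colon, with a median of -0.83 against 0.00 over all genes, of which 49.8% lay below 0. None of the 10 was called by edgeR or DESeq2, where the rule called 0.00696% of all genes, and 4 of 10 had an unadjusted p under 0.05, all below 0, against 3.58% of all genes. These were *Hspa1b* (-2.79, SE 1.01), *Hspa1a* (-2.55, SE 1.09), *Dnaja1* (-1.42, SE 0.52) and *Dnajb1* (-1.05, SE 0.42), with edgeR adjusted p from 0.501 to 0.568. Without WT day 15 replicate 2 they were -0.78, -0.52, -0.71 and -0.62 and none had an unadjusted p under 0.05, the median over the 10 genes being -0.49. With any 1 mouse left out the median over the 10 genes lay between -1.24 and -0.49, and 8 to 10 values were below 0. A difference between genotypes in the response of these genes was thus not shown at 2 mice per group.

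**Figure D4:**
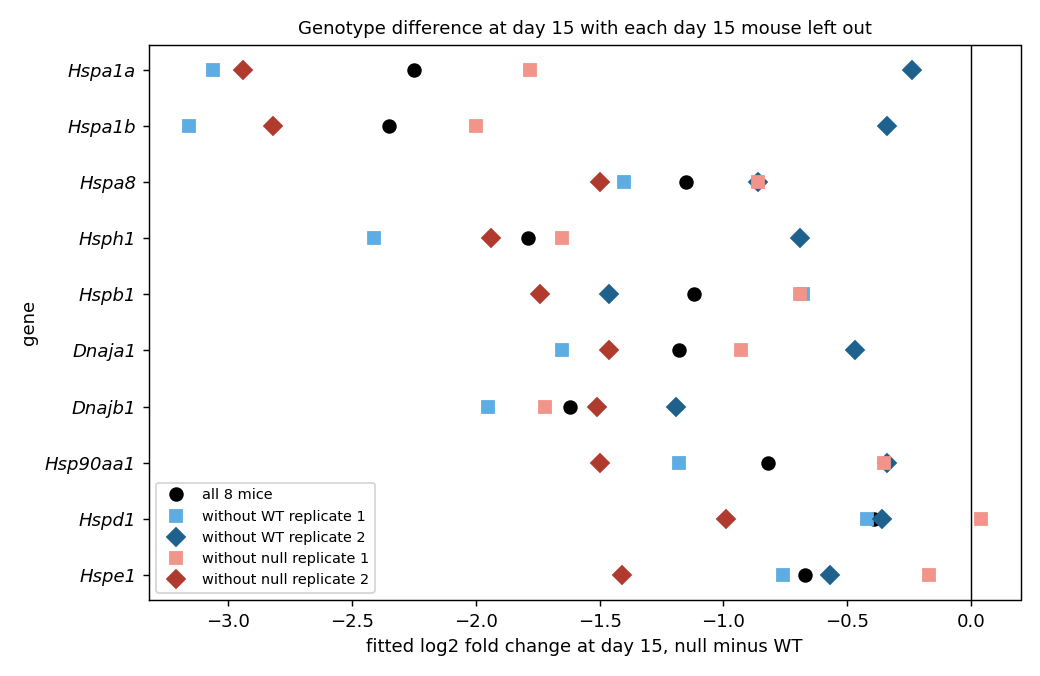
Fitted log2 fold change of null against WT at day 15 for each gene with all 8 mice (black) and with each of the 4 day 15 mice left out in turn. Without WT replicate 2 the values lie between -1.46 and -0.24, and *Hspd1* without null replicate 1 is the only value above 0.

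How far the day 15 result rests on 1 mouse can be read from the same fits. Without WT day 15 replicate 2, all 10 fitted values remained below 0, with a median of -0.52, and 3 had an unadjusted p under 0.05, but none was called, while 19 of all genes were. Without WT day 15 replicate 1 the median was -1.52 and 5 genes were called, *Dnaja1*, *Dnajb1*, *Hspa1a*, *Hspa1b* and *Hsph1*, among 345 of all genes. The median was -0.89 without null day 15 replicate 1, with 0 of the 10 and 30 of all genes called, and -1.51 without null day 15 replicate 2, where *Hspa8* was called and *Dnajb1* was not, among 873 of all genes. DESeq2 on all 8 mice called 6, the same 5 and *Hspa8*, and 1197 of all genes against 455 by edgeR. The summed level of the 10 genes was 1094 and 1262 CPM in WT day 0, 933 and 965 in null day 0, 1628 and 2439 in WT day 15 and 710 and 1213 in null day 15. Each null sum was below both WT sums of its day. *Hspa8* was the largest part of every sum, at 631 and 594 CPM in WT day 0 and 474 and 452 in null day 0. The sum of the other genes was not computed.

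Per kilobase of annotated exon, the order of mean levels in WT day 0 was *Hspa8* (142 CPM per kb), *Hspe1* (98.0), *Hspb1* (73.9), *Hspd1* (40.2), *Dnajb1* (23.9), *Hsp90aa1* (16.9), *Dnaja1* (5.75), *Hspa1b* (5.23), *Hspa1a* (3.41) and *Hsph1* (2.79). The 2 mice overlapped between *Hspe1* and *Hspb1*, between *Dnaja1* and *Hspa1b* and between *Hspa1a* and *Hsph1*, and the other neighbours were separate. In WT day 15 both inducible HSP70 genes stood above *Dnaja1* by their means, 22.0 and 14.1 against 11.9, which replicate 2 alone produced, since in replicate 1 *Dnaja1* stood at 7.31 against 5.39 and 3.51. The order depends on the lengths, which merge every annotated exon: 8629 bases for *Dnaja1*, 2803 for *Hspa1b* and 2967 for *Hspa1a*. Without division by length *Dnaja1* stood above both in WT day 15, at a mean of 103 CPM against 61.4 and 41.9. Other lengths were not tried. In null day 15 *Dnajb1*, at 10.8, stood below *Hsp90aa1*, at 13.8, but null replicate 1 had the reverse order.

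Other chaperone families are given as counts from lists of family members. Of 19 cochaperones and other heat shock response genes, 2 fell in null against WT colon at day 15, 0 rose and 17 did not pass, where 1.25% of all genes were called lower and 1.91% higher, and the median was -0.39. *Ahsa1*, which activates the HSP90 ATPase, was measured at 58.3 and 80.3 CPM in WT day 15 and 31.6 and 28.0 in null day 15 (log2 fold change -1.22, SE 0.26, edgeR adjusted p = 0.0385), and *Ubb*, a polyubiquitin gene, at 82.3 and 75.0 and at 29.0 and 15.2 (-1.83, SE 0.33, edgeR adjusted p = 0.0240). None of 11 cytosolic J-domain genes, 8 TRiC chaperonin subunits, 8 mitochondrial chaperones and proteases, 14 endoplasmic reticulum chaperones, 7 tested genes of the other HSP70 and HSP110 proteins and 5 tested genes of the other small heat shock proteins was called. Their medians were 0.20, 0.08, 0.06, -0.35, -0.25 and 0.01. Of 5 tested heat shock factors and binding proteins *Hsf1* fell and the other 4 did not pass. The most abundant of these families, *Dnajc5*, *Cct5*, *Hspa9*, *Hsp90b1*, *Hspa4*, *Hspb8* and *Hsbp1*, had differences from -0.02 to 0.46.

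**Figure D5:**
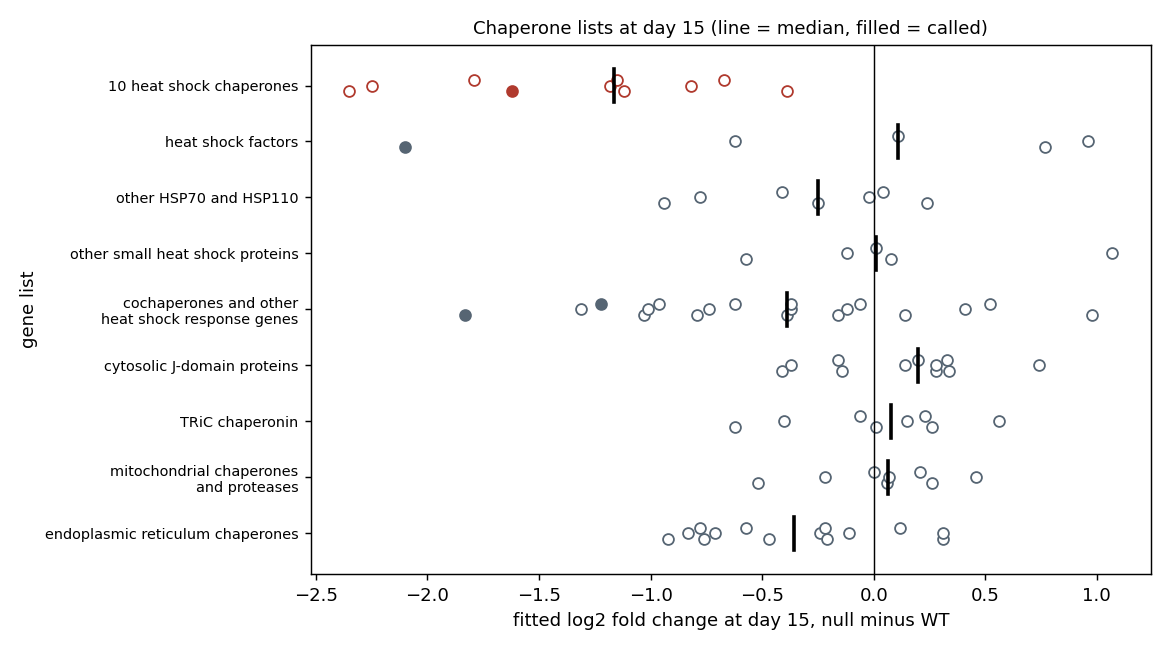
Fitted log2 fold change of null against WT at day 15 for each gene of 9 chaperone lists, 1 point per gene, with a line at each list's median and filled points for called genes. The 10 heat shock chaperones lie between -2.35 and -0.39, and the called genes are *Dnajb1*, *Hsf1*, *Ahsa1* and *Ubb*.

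Markers of other cell types and states moved with the day 15 comparison, and their part in the result was not tested. Summed CPM of 7 neutrophil genes (of 9 listed) was 131 and 527 in WT day 15 against 6.20 and 23.5 in null day 15, and 4 of the 7 fell. Macrophage genes summed to 1098 and 1869 against 236 and 666, with 2 of 8 called lower, and B and plasma cell genes to 3251 and 3590 against 231 and 465, with 2 of 6 called lower. The mouse with the highest chaperone levels, WT day 15 replicate 2, also had the highest neutrophil and macrophage sums of the 8. Goblet cell genes summed to 6968 and 9139 against 38781 and 18697, with 3 of 7 called higher. Colonocyte genes summed to 8240 and 10320 against 18096 and 12527, with 1 of 10 called higher. Endothelial genes summed to 288 and 234 against 63.1 and 130, with 1 of 5 called lower. No gene was called among 9 smooth muscle genes (3717 and 2146 against 5344 and 6122), 7 fibroblast genes (2413 and 2387 against 464 and 1469) or 6 T cell genes (102 and 175 against 44.2 and 76.6). The same held for 8 proliferation genes (1185 and 1079 against 485 and 1108) and 7 enteric neuron and glia genes (112 and 78.2 against 182 and 120). It also held for 17 immediate early genes, which respond to handling and stress (2091 and 1556 against 3554 and 1883). Of 5 measured pancreatic acinar genes 2 were tested and not called, and those 2 summed to 67.0 and 30.9 against 279 and 108. No measured gene of these lists was at 0 in all 8 mice.

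The genes whose levels over the 8 mice were most like those of each chaperone were found among 9994 genes as the smallest root mean square distance between log2 levels centred on each gene's own mean. *Hspa1a* and *Hspa1b* were nearest to each other, at 0.18, with no other gene between them, and their nearest other gene was *Il33*, at 0.51 and 0.46. Since most of the 50-base stretches of the pair are shared and the assignment of such reads is not given, the part of read assignment in the 0.18 was not tested. *Il33* was measured at 3.63 and 3.97 CPM in WT day 0, 6.65 and 6.11 in null day 0, 9.74 and 59.2 in WT day 15 and 3.57 and 3.74 in null day 15, also high in WT day 15 replicate 2 alone. The distances of the others were 0.15 from *Hspa8* to *Ehd3*, 0.25 from *Hsph1* to *Bst2*, 0.26 from *Hspb1* to *Gapdh*, 0.16 from *Dnaja1* to *Prom1*, 0.27 from *Dnajb1* to *Nubp1*, 0.13 from *Hsp90aa1* to *Tpm4*, 0.14 from *Hspd1* to *Nap1l1* and 0.22 from *Hspe1* to *Akr1b10*, where the median distance to all genes was 0.59 to 1.10. *Hspd1* and *Hspe1*, which lie head to head, were each other's nearest chaperone at 0.24, with 36 and 5 other genes nearer.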

How the data were processed

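PolyA RNA of distal colon from 8 male mice, 2 per group, was sequenced as bulk libraries made with a kit that selects mRNA. Per the labels and the study's methods, the authors aligned reads to mm10 with STAR and normalized with DESeq2. The counting program, annotation and strand setting are not given in the sources used here. The authors deposited whole-number counts per gene, which were used for every test, and a normalized table, a signal equal to those counts divided by 1 size factor per library, which was only checked (largest relative spread of the implied factor 9.49e-10). The table held 0 columns of other samples. The study's day 15 follows its sample titles and text, whereas the labelled protocol ends directly after DSS, and the design text gives a slightly different age than the labels.

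In R 4.3.3, edgeR 4.0.16 (TMM scaling, glmQLFit and glmQLFTest) was fitted once to 4 groups and all 8 libraries. Testing was limited to the 14371 of 15859 genes whose normalized count averaged above 5 over the libraries, p-values were adjusted by Benjamini-Hochberg over all of them, and a gene was called at adjusted p below 0.05 and absolute log2 fold change above 1. Signs are null minus WT and day 15 minus day 0, and 95% intervals used 9.97 degrees of freedom, of which 5.97 came from the spread over all genes. Total counts ran from 2553348 to 12440257, a ratio of 4.87, and intervals cover the spread between these mice. Groups followed the genotype and treatment labels. The replicates are separate mice. Checks on simulated data recovered most of the largest planted changes, which exceeded every chaperone difference between genotypes at day 15 with all 8 mice. Recovery of smaller planted changes was not required. DESeq2 1.42.0, other scalings and filters, thinning, a replicate block and leaving out each mouse were tried as alternatives.

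The 10 genes, the gene lists and the tests were chosen with earlier results of these data known. All 10 genes and *Hsf1* were named. Genes named from other lists were called or were the most abundant of a chaperone list, apart from *Hspa1l*, which was named for its shared sequence. At most 4 called genes were named per list and comparison, by smallest p, and many called genes were not named. Similar patterns used genes with a mean of at least 10 CPM, on log2 CPM with a prior count of 0.5. Positions and exons are from GENCODE (GRCm38), and upstream sequences from RefSeq. Protein identity was planned but not computed, since protein sequences were not used here, and shared transcript stretches took its place. Where the labels gave equal replicate numbers to different animals, the numbers did not pair them.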

Additional observations from a re-analysis of the deposited data

Results flagged for a closer look

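For *Dnaja1* the day 15 mice lay on opposite sides of the day 0 mice in the 2 genotypes, although neither change was called: it was 1.06 in WT (SE 0.37, edgeR adjusted p = 0.101) and -0.36 in null (SE 0.37, 95% interval -1.18 to 0.46, edgeR adjusted p = 0.536). Both WT day 15 mice, at 63.1 and 143 CPM, lay above both WT day 0 mice, at 44.8 and 54.4, while both null day 15 mice, at 37.4 and 53.5, lay below both null day 0 mice, at 53.8 and 63.2, the nearest null pair differing very little. Of all genes, 31.0% had the WT pattern and 30.3% the null pattern. The share with both was not computed, so the pattern cannot be called particular to *Dnaja1*. The difference of the 2 changes was -1.42 on the log2 scale (SE 0.52, 95% interval -2.58 to -0.25), with an unadjusted p of 0.0219 and an adjusted p of 0.502 by edgeR, so it did not pass the correction over all genes. It was -0.71 without WT day 15 replicate 2. Its groups of 2 mice were too small for a check of single mice against the rest of their group.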

How the results depend on the processing

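With all 8 mice, edgeR called 1 of the 10 chaperone genes at day 15, 1 averaged over both days and 0 in the other comparisons. DESeq2 called 6 at day 15, 3 averaged and 4 in the WT change. At day 15, 0 were called with only the compared groups fitted and 0 with thinned libraries, and 0 averaged with thinned libraries. Leaving out 1 mouse gave 0 to 5 at day 15, 0 to 3 averaged and 0 to 4 in the WT change. Fits with fewer mice or counts called more genes than the main fit in some comparisons and fewer in others. The cause of these differences, and of those with DESeq2, was not tested. All genes called at day 15 numbered 455 by edgeR, 1197 by DESeq2, 6 with only the compared groups and 261 thinned. Averaged they were 145 by edgeR and 644 by DESeq2, in the WT change 1112, 1737 and 727 thinned, in the null change 1692 and 1088 thinned, in the difference of the changes 1, 130 by DESeq2, 2 unfiltered and 4 thinned, and at day 0, 0 and 18 by DESeq2. Leaving out 1 mouse gave 12 to 873 at day 15, 0 to 435 averaged, 92 to 1336 in the WT change, 0 to 1891 in the null change, 0 to 50 in their difference and 0 to 17 at day 0.

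The replicate numbers were given to different animals and do not pair them. Deviations of same-numbered mice correlated at -0.30 and -0.27 between WT day 0 and the WT and null day 15 groups. Between the other groups they correlated at 0.023 to 0.17, with 0.15 between WT day 15 and null day 15. A replicate block left 1 chaperone gene called at day 15, took the average from 1 to 0 (*Dnajb1* edgeR adjusted p = 0.0631, 25 genes in all) and gave 2 genes in all in the difference of the changes. It changed no other call among the 10. With the WT day 0 numbers exchanged, an alternative chosen after seeing the data, the block called 4 chaperone genes at day 15, 2 averaged and 1 in the WT change, and 1314, 517 and 1856 of all genes, with 54 in the difference of the changes.

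Of the 1048 single-gene values recomputed, 970 kept direction and side of the threshold and 34 uncalled values changed sign. Thinning turned *Hspa1a* to -0.70 at day 0 and 0.73 in the null change, *Hspe1* to 0.05 at day 0 and *Hspb1* to -0.18 in the null change. The block turned *Hspe1* to 0.05 at day 0 and -0.04 in the null change, and the exchanged block *Hspb1* to 0.01 in the difference. With 1 mouse left out, ranges that crossed 0 were: at day 15, *Hspd1* -0.99 to 0.04. At day 0, *Hspa1a* -0.14 to 0.76, *Hsp90aa1* -0.39 to 0.13, *Hspd1* -0.48 to 0.21 and *Hspe1* -0.41 to 0.48. Averaged, *Hspa1a* -1.38 to 0.02 and *Hspa1b* -1.36 to 0.05. In the WT change, *Hspb1* -0.23 to 0.60. In the null change, *Hspa1a* -1.13 to 0.01, *Hspa8* -0.25 to 0.39, *Hspb1* -0.46 to 0.59, *Hsp90aa1* -0.85 to 0.29, *Hspd1* -0.51 to 0.51 and *Hspe1* -0.66 to 0.58. In the difference of the changes, *Hsph1* -1.53 to 0.20, *Hspb1* -0.68 to 0.39 and *Hspd1* -0.83 to 0.19. The cause of these changes was not tested. The 2 smallest libraries, of 2553348 and 2675976 counts, were both day 0.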

Other observations

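Of 14 chaperones of the endoplasmic reticulum, which fold secreted proteins, 3 rose from day 0 to day 15 in WT colon and 11 did not pass, where 3.47% of all genes were called higher. In null colon 4 rose, 1 fell and 9 did not pass, where 5.30% of all genes were called higher and 6.48% lower. Every call named here and in the next paragraph for the null change was lost without null day 0 replicate 2, when 0 of all genes were called, and between 92 and 1336 of all genes were called in the WT change with 1 mouse left out. *Pdia6*, a disulfide isomerase, was measured at 145 and 122 CPM in WT day 0 and 266 and 313 in WT day 15, a log2 fold change of 1.11 (SE 0.28, edgeR adjusted p = 0.0408), and at 107 and 90.6 in null day 0 and 239 and 388 in null day 15, a log2 fold change of 1.67 (SE 0.29, edgeR adjusted p = 0.0140). *Dnajb11*, a J-domain partner of the resident HSP70, and *Manf*, a secreted survival factor, were also called higher in each genotype, *Dnajb11* by 1.26 (SE 0.30) in WT and 1.52 (SE 0.30) in null and *Manf* by 1.09 (SE 0.29) and 1.55 (SE 0.30). *Dnajb9* fell in null colon by 1.40 on the log2 scale (SE 0.25, edgeR adjusted p = 0.0152). In WT colon it went from 80.8 and 92.9 CPM at day 0 to 36.7 and 50.2 at day 15 (edgeR adjusted p = 0.0368) and was not called, since its fold change did not exceed the threshold.

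Of 19 cochaperones and other heat shock response genes, 2 rose in WT colon at day 15, and 2 rose and 2 fell in null colon, against the same shares of all genes. *Hspbp1*, a nucleotide exchange factor of HSP70, rose in each genotype, by 1.25 (SE 0.30) in WT and 1.16 (SE 0.30) in null. *Stub1*, a ubiquitin ligase that binds HSP70 and HSP90, rose in null colon by 1.76 (SE 0.29), from 98.3 and 57.1 CPM to 299 and 230, and was 1.03 (SE 0.29, edgeR adjusted p = 0.0547) in WT. *Ahsa1* rose in WT colon by 1.10 (SE 0.26) and was 0.15 (SE 0.26) in null. *Ubb* fell by 2.29 on the log2 scale in null colon (SE 0.33), from 88.9 and 129 CPM to 29.0 and 15.2, and was -0.87 (SE 0.31) in WT. *Dnajb4* fell by 1.77 in null colon (SE 0.45) and was -1.16 (SE 0.44) in WT. The difference between the genotypes' changes was -1.42 (SE 0.45, edgeR adjusted p = 0.439) for *Ubb* and -0.95 (SE 0.37, edgeR adjusted p = 0.520) for *Ahsa1*, in a comparison that called 0.00696% of all genes.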
